A study of Bos taurus with 129 samples.

Results

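The genes described here were 9 genes of regulatory T cells and of the immune checkpoint: FOXP3, IL2RA, CTLA4, ICOS, TIGIT, PDCD1, CD274, LAG3 and HAVCR2. They were chosen by name from what these genes are known for, though with earlier results of these data known. All 9 symbols were found among the 32395 genes of the count table. Each passed the filter on low counts in each model, so none was lost before testing. Levels are given as CPM, the count of a gene relative to the total count of its library, after TMM scaling, which lessens the weight of a few very abundant transcripts. Values are compared within a gene and never between genes, since gene lengths were not used.

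Regulatory T cells hold back the responses of other lymphocytes. FOXP3 is the transcription factor that defines them in mice and humans, and IL2RA (CD25), the alpha chain of the high-affinity interleukin-2 receptor, is carried by them and by activated T cells. CTLA4 competes with the costimulatory receptor CD28 for CD80 and CD86, ICOS is a costimulatory receptor raised on activated T cells, and TIGIT, PDCD1 (PD-1), LAG3 and HAVCR2 (TIM-3) are inhibitory receptors of T and NK cells, with CD274 (PD-L1) the ligand of PD-1. In cattle, gamma-delta T cells have been described as suppressive as well, so these transcripts in whole blood do not stand for a single kind of cell.

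Whole blood was drawn from 26 crossbred beef steers that had been weaned and trucked to the study site, on day 0 of enrollment and again on days 13, 28, 45 and 60. By the disease label, 12 steers were healthy and 14 had bovine respiratory disease (BRD), and the day of diagnosis is not given in the sources used here, so a day is a study day and not a time from illness. Steers labelled INR received Cu, Co, Mn and Zn as sulfates, those labelled AAC received them in amino acid-complexed form, and those labelled COMBO received the complexed form and had an oral drench of trace minerals and vitamins before shipment, on day 0 and at any treatment for illness. The healthy steers were 4 AAC, 4 COMBO and 4 INR, and the BRD steers were 4 AAC, 3 COMBO and 7 INR. Every steer was vaccinated and dewormed on day 0 and vaccinated again later, so a change from day 0 also follows arrival, vaccination and feeding, and no group was left untreated. Healthy COMBO steers were first penned in pen 5 and BRD COMBO steers in pen 6, so pen and disease label cannot be told apart within COMBO.

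There were 59 healthy and 70 BRD libraries, since the authors had removed the day 13 library of healthy AAC animal 48. Total counts ranged from 31613545 to 61692136 per library. All 10 T cell markers searched (CD3D, CD3E, CD3G, CD247, CD2, CD5, CD6, CD4, CD8A and CD8B) were present in every library. Markers of other blood cells moved over the study: erythroid transcripts rose, with 4 or 6 of 6 markers called at each later day, and the monocyte markers CD14, CD163 and VCAN fell in both disease labels. All genes share 1 total in each library, and fewer cells of a type and less RNA per cell cannot be told apart in whole blood.

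The 9 genes differed in how steady they were. Over all libraries TIGIT had a median of 23.6 CPM (lowest 13.2, highest 39.97) and a coefficient of variation of 20.8%, ICOS a median of 29.2 (15.8 to 52.58) with 22.2%, and PDCD1 a median of 8.56 (4.38 to 13.9) with 23.9%. CTLA4 had a median of 4.19 (1.97 to 8.43), FOXP3 of 7.03 (2.62 to 16.1) and LAG3 of 30.2 (12.2 to 64.8). IL2RA reached from 16.3 to 139 CPM around a median of 42.3, and CD274 from 14.26 to 244.6 around a median of 43.8, with coefficients of variation of 42.5% and 70.97%. HAVCR2 was the sparsest, with a median of 92 counts per library (2.201 CPM), 0 counts in 5 libraries and at most 420. A count of 0 at this depth allows up to 3 counts, and such limits cover counting error only. The other genes had at least 87 counts in every library.

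Levels differed between steers. Differences between animals made up 66.5% of the variance of LAG3, 65.7% of that of ICOS and 58.9% of that of TIGIT, against 28.8% for HAVCR2 and 31.3% for IL2RA. These shares include differences between disease labels, supplements and pens, and some share arises from random spread alone. Differences between days made up 25.51% of the variance of IL2RA and 13.5% of that of FOXP3, and at most 7.44% of that of any other member. IL2RA thus varied most with the study day, and LAG3 and ICOS most with the animal.

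**Figure D1:**
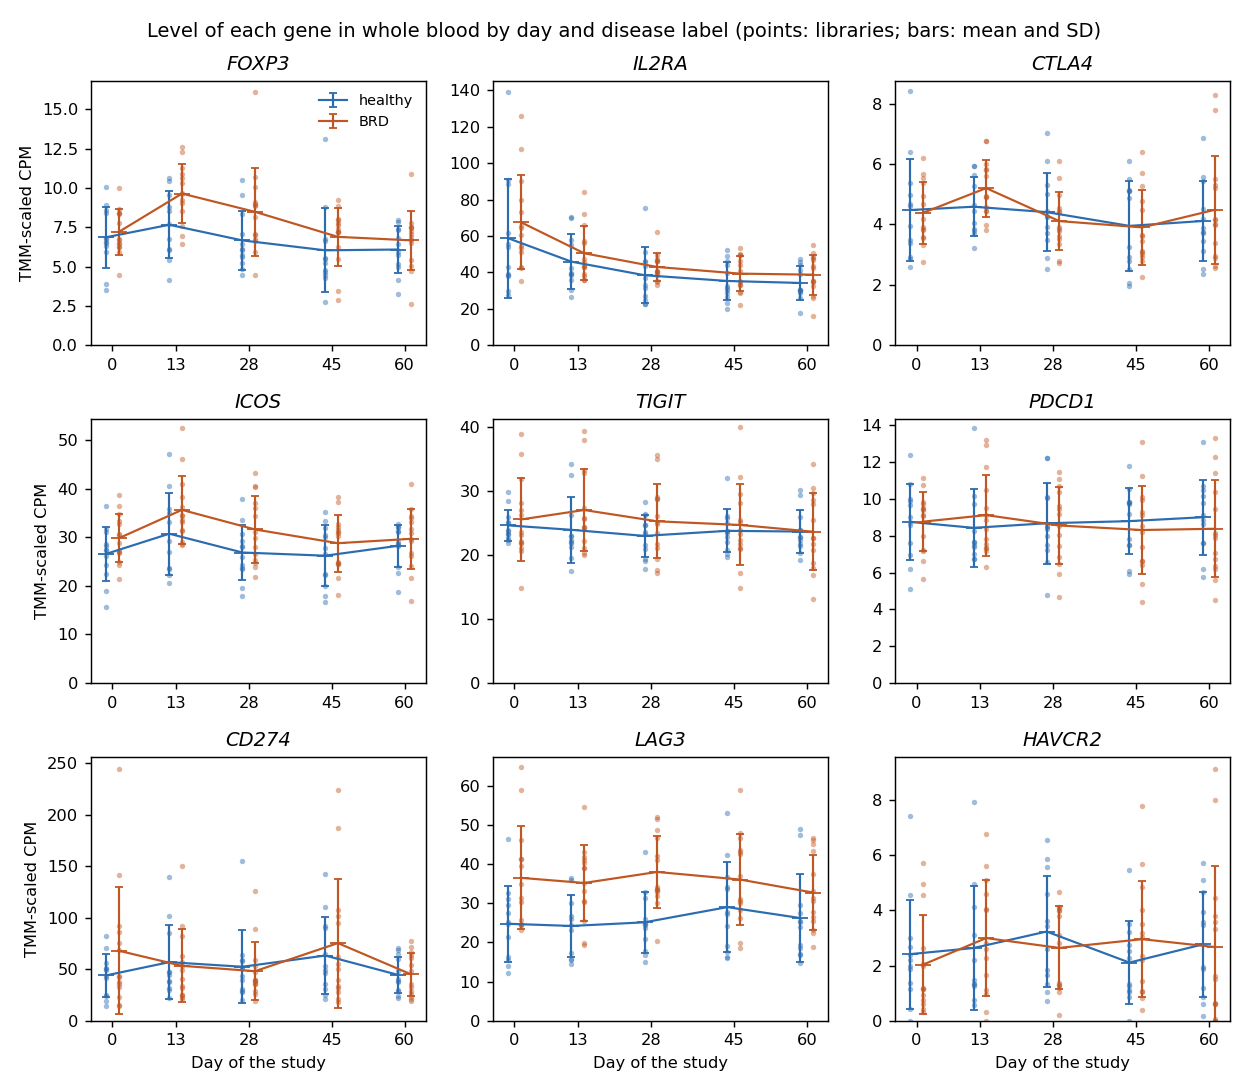
CPM of each gene in every library by study day, with healthy (n = 12 steers, 11 on day 13) and BRD (n = 14 steers) points side by side, and with a line through the means and bars of 1 SD. The IL2RA means go down from 58.8 to 34.23 CPM in healthy steers and from 67.6 to 38.8 CPM in BRD steers from day 0 to day 60, the FOXP3 mean of BRD steers is highest on day 13 at 9.64 CPM, and the LAG3 means of BRD steers lie above those of healthy steers at each day with overlapping points.

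The first question was how the genes moved after arrival. Each later day was compared with day 0 within the same steers, with animal as a block, and the 8 comparisons share their day 0 libraries within a disease label. IL2RA fell in both labels, while FOXP3 and ICOS rose on day 13 in BRD steers. The quasi-likelihood test of edgeR with Benjamini-Hochberg adjustment over 18937 genes and a false discovery rate (FDR) threshold of 0.10 gave 3 calls in 36 tests of the members in healthy steers and 6 in 36 in BRD steers. In healthy steers 0 of 9 members were called on day 13 (10.95% of all genes tested were called) and 1 of 9 on each of day 28 (20.98%), day 45 (8.55%) and day 60 (11.64%). In BRD steers 3 of 9 were called on day 13 (17.43% of all genes) and 1 of 9 on each of day 28 (20.05%), day 45 (22.51%) and day 60 (19.62%). Apart from day 13 in BRD steers, the share of members called was thus near or below that of all genes. On day 13 in healthy steers 1 member had an unadjusted p under 0.05, beside 4135 of 18937 genes, and DESeq2 called 0 members.

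IL2RA was the member called at the later days in both labels. On day 0 the healthy steers lay between 27.8 and 139 CPM with a median of 48.5, and on day 60 between 17.6 and 47.2 with a median of 30.3. In the BRD steers day 0 ran from 35.4 to 125.9 CPM with a median of 62.4, and day 60 from 16.3 to 55.1 with a median of 38.9. The ranges overlapped, but the highest levels of day 0 were gone by day 28 in BRD steers, whose highest library then had 62.3 CPM.

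The medians between these days were 39.5, 35.16 and 31.9 CPM on days 13, 28 and 45 in healthy steers and 44.7, 40.9 and 38.2 in BRD steers. On the log2 scale the change in healthy steers was -0.54 ± 0.17 (SE) on day 28 (FDR 0.0189), -0.65 ± 0.17 on day 45 (FDR 0.00773) and -0.72 ± 0.17 on day 60 (FDR 0.00203). It was lower than on day 0 in 8, 10 and 9 of 12 steers. The day 13 change in healthy steers was -0.31 ± 0.17 (FDR 0.278), lower in 8 of 11 steers, and was not called.

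In BRD steers IL2RA changed by -0.43 ± 0.15 on day 13 (FDR 0.0514), -0.64 ± 0.15 on day 28 (FDR 0.00163), -0.77 ± 0.15 on day 45 (FDR 0.00011) and -0.80 ± 0.15 on day 60 (FDR 7.1e-05), the last equal to 0.573 of the day 0 level. It was lower in 11, 12, 13 and 12 of 14 steers. The day 13 call was lost without BRD INR animal 27 (-0.36, FDR 0.113) or 43 (-0.34, FDR 0.112), and the day 28 call in healthy steers without healthy COMBO animal 6 (-0.35, FDR 0.155). The fall did not differ detectably between the labels: the difference of the change was between -0.13 ± 0.23 and -0.08 ± 0.23 at the 4 days, with a 95% interval of -0.53 to 0.36 on day 60.

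**Figure D2:**
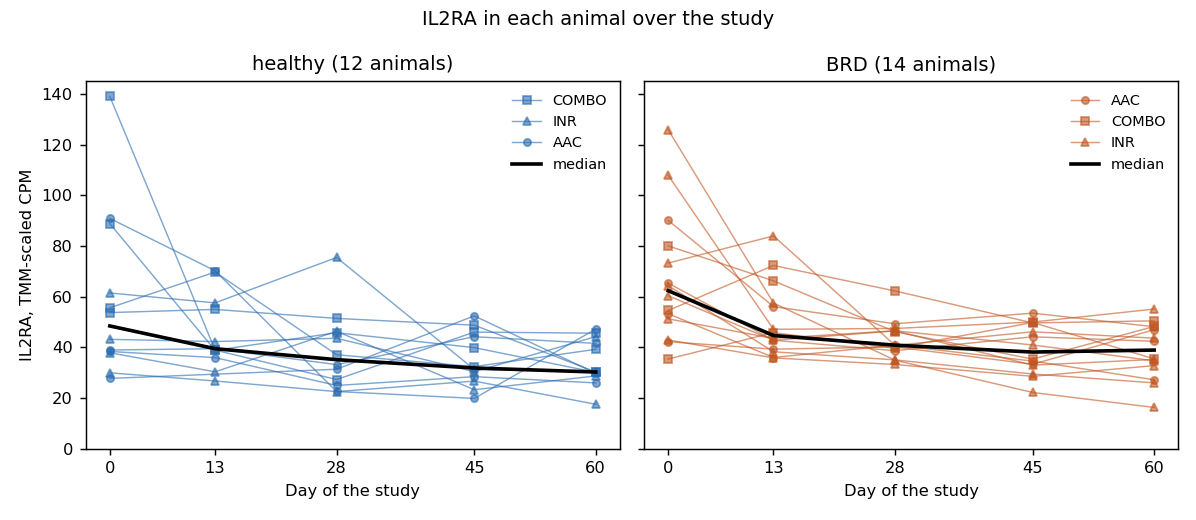
IL2RA in CPM by study day with a line for each steer, healthy steers (n = 12) and BRD steers (n = 14) in separate panels, symbols for the supplement and a black line through the medians. Most lines go down from day 0, with 9 of 12 healthy and 12 of 14 BRD steers lower on day 60, and the 2 highest day 0 libraries reach 139 CPM (healthy) and 125.9 CPM (BRD).

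Over all libraries IL2RA went with myeloid rather than with T cell markers. Pearson's r was taken between its log2 CPM and the mean log2 CPM of the markers of a cell type. It was 0.68 for the neutrophil markers (CXCR2, S100A8, S100A9, S100A12 and MMP9), 0.55 for the monocyte markers and 0.14 for the T cell markers. These are descriptions over libraries that share animals, days and totals. The summed neutrophil markers had medians of 1531 CPM on day 0 and 913 CPM on day 60 in healthy steers (956 to 3617, then 650 to 1525), and of 1903 and 1072 CPM in BRD steers (1077 to 8783, then 366 to 1788). Of these 5 markers, 1, 3, 0 and 3 fell in healthy steers on days 13, 28, 45 and 60, and 3, 4, 4 and 4 fell in BRD steers. Of the 5 monocyte markers, 3 fell at each later day in both labels, and 5 on day 60 in BRD steers. Of the 10 T cell markers, 1 fell in healthy steers on day 28 and 0 were called in the other 7 comparisons.

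With the level of S100A8, S100A9 and S100A12 as a covariate, an alternative added after the values were seen, the IL2RA changes in BRD steers were 0.22 on day 13, 0.02 on day 28, -0.16 on day 45 and -0.12 on day 60, and none was called (FDR 0.324 to 0.971). In healthy steers they were -0.17 on day 28 (FDR 0.402), -0.38 on day 45 (FDR 0.0368) and -0.27 on day 60 (FDR 0.219). On day 28 in BRD steers 1457 genes were called in all with this covariate, against 3796 without it. The part of the neutrophils in the fall of IL2RA was not tested beyond these values.

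FOXP3 rose on day 13 in BRD steers. Its 14 BRD libraries had a lowest, median and highest level of 4.44, 6.73 and 9.97 CPM on day 0 and of 6.42, 9.62 and 12.6 CPM on day 13. The ranges overlapped, and 13 of 14 steers were higher on day 13. The mean went from 7.20 to 9.64 CPM, a log2 change of 0.42 ± 0.11 (FDR 0.00619, 1.34-fold), and it was called with each of the 14 steers left out in turn (0.39 to 0.45).

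In healthy steers FOXP3 ran from 3.50 to 10.1 CPM on day 0 (median 6.66) and from 4.17 to 10.6 CPM on day 13 (median 7.73). The change was 0.14 ± 0.13 (FDR 0.558), with 6 of 11 steers higher. The 2 changes differed by 0.29 ± 0.17, with a 95% interval of -0.04 to 0.62 and an unadjusted p of 0.0932 (FDR 1), so a difference between the labels was not shown. By day 28 the BRD median was 8.49 CPM (0.20 ± 0.11, FDR 0.260), a change that was called without BRD INR animal 43 (0.26, FDR 0.0844), and by day 60 it was 6.99 CPM (-0.14 ± 0.11, FDR 0.464).

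ICOS rose with it. In BRD steers its lowest, median and highest levels were 21.4, 29.6 and 38.6 CPM on day 0 and 28.5, 33.95 and 52.58 CPM on day 13, higher in 11 of 14 steers. The log2 change was 0.25 ± 0.07 (FDR 0.0140), and it stayed between 0.22 and 0.28 and was called with each steer left out. In healthy steers the median went from 27.4 CPM (15.8 to 36.5) to 29.3 CPM (20.6 to 47.2), a change of 0.18 ± 0.08 (unadjusted p 0.0310, FDR 0.177), and the changes of the 2 labels differed by 0.07 ± 0.11. On days 28 to 60 the changes of ICOS lay between -0.07 and 0.10 in the 2 labels.

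The rises of FOXP3 and ICOS were as large with the level of CD3D, CD3E and CD3G as a covariate, at 0.45 (FDR 0.000119) and 0.27 (FDR 0.00124). The summed T cell markers had medians of 1435 CPM on day 0 and 1452 CPM on day 13 in BRD steers. All 4 proliferation markers (MKI67, TOP2A, CDK1 and CCNB1) rose in BRD steers on day 13, against 1 of 4 in healthy steers, and their part in the rises was not tested. Without animal as a block neither gene was called (FDR 0.150 for FOXP3 and 0.213 for ICOS).

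CTLA4, which shares its ligands with CD28, was measured at lower counts. In BRD steers it went from a median of 4.06 CPM (2.76 to 6.21) on day 0 to 4.93 CPM (3.80 to 6.76) on day 13, higher in 10 of 14 steers, and the change of 0.26 ± 0.12 was not called (unadjusted p 0.0356, FDR 0.155). It was called without BRD INR animal 39 (0.32, FDR 0.0814). In healthy steers the same change was 0.06 ± 0.14, from a median of 4.29 CPM (2.58 to 8.43) to 4.44 CPM (3.23 to 5.94). At the later days it lay between -0.20 and 0.02 in the 2 labels.

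The inhibitory receptors showed no called change at any day. TIGIT changed by between -0.13 and 0.08, with standard errors of at most 0.09, and its BRD medians ran 23.4, 24.99, 25.05, 23.6 and 22.6 CPM over the 5 days. PDCD1 changed by between -0.11 and 0.05, with standard errors of at most 0.12. LAG3 changed by between -0.16 and 0.22. For these 3 genes the 95% intervals bound any change from day 0 between -0.41 and 0.49.

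HAVCR2 and CD274 were too variable for such bounds. HAVCR2 had standard errors of 0.50 to 0.55, and its changes ran from -0.20 to 0.61. CD274 had standard errors of 0.29 to 0.32. Its largest change was 0.50 ± 0.31 on day 45 in healthy steers (FDR 0.410), with 10 of 12 steers higher, from a median of 46.38 CPM (14.5 to 82.2) to 50.9 CPM (21.3 to 143). On the same day in BRD steers the change was 0.16 ± 0.29, with a median of 52.8 CPM and a highest library of 224 CPM.

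**Figure D3:**
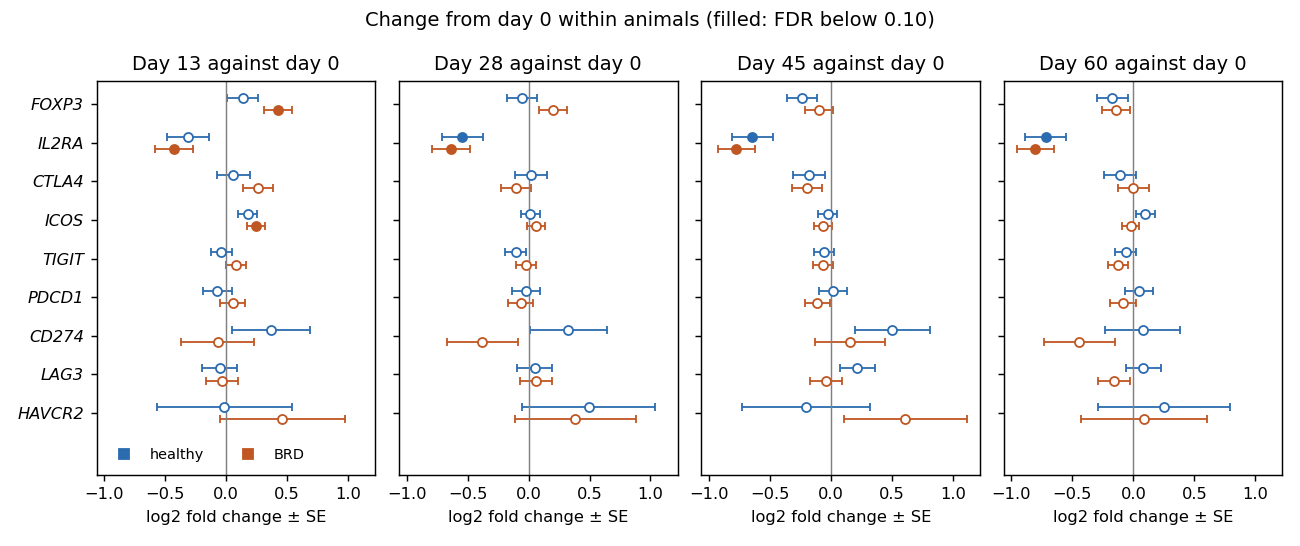
Log2 change from day 0 of each gene at days 13, 28, 45 and 60 in healthy and BRD steers, with bars of 1 SE and filled points where the FDR was below 0.10. IL2RA lies below 0 at every day, FOXP3 (0.42) and ICOS (0.25) are called above 0 on day 13 in BRD steers, and the bars of HAVCR2 and CD274 are the widest.

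The change from day 0 was then compared between the disease labels. No member was shown to differ. At each of days 13, 28, 45 and 60, 0 of 9 members and 0% of all genes were called. An unadjusted p under 0.05 was seen for 0 members, beside 619, 863, 801 and 596 of 18937 genes. Tests that call no gene do not show that the changes were equal. DESeq2 and limma-voom also gave 0 member calls. The widest estimates were those of HAVCR2, 0.82 ± 0.73 on day 45, and of CD274, -0.70 ± 0.43 on day 28.

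The second question was whether BRD and healthy steers differed at a given day. LAG3 was higher in BRD steers at each day, by amounts that did not pass the threshold. In each comparison 0 of 9 members were called by edgeR, beside 0.0158% of all genes on day 0, 0% on day 13, 0.00528% on day 28, 0% on day 45 and 0.00528% on day 60. The members with an unadjusted p under 0.05 numbered 2, 1, 2, 0 and 0 at the 5 days, beside 1347, 716, 1635, 800 and 689 of 18937 genes. limma-voom called 0 members, and DESeq2 called 1, which was LAG3 on day 0. These fits take each library as a sample of its day, averaged over the supplements.

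LAG3, which binds MHC class II and restrains T cells, had a median of 33.1 CPM in BRD steers on day 0 (23.1 to 64.8) and of 24.9 CPM in healthy steers (12.2 to 46.5). On day 13 the medians were 37.01 CPM (19.3 to 54.4) and 24.4 CPM (14.6 to 36.5), and on day 28 they were 33.8 CPM (20.36 to 51.9) and 24.6 CPM (14.9 to 43.2). The groups overlapped at each of these days.

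The log2 difference was 0.66 ± 0.18 on day 0 (FDR 0.192), 0.53 ± 0.19 on day 13 (FDR 1), 0.62 ± 0.18 on day 28 (FDR 0.352), 0.31 ± 0.18 on day 45 (FDR 1) and 0.29 ± 0.18 on day 60 (FDR 1). On day 0 it passed with DESeq2 (0.67, FDR 0.0460) and in edgeR without BRD COMBO animal 16 (0.74, FDR 0.0253). Those fits called 98 and 317 genes in all, against 3 in the main fit. Over the alternatives other than leaving out an animal it lay between 0.61 and 0.71 on day 0 (FDR 0.0460 to 0.389). With each animal left out it lay between 0.55 and 0.79 (FDR 0.0253 to 0.677). With the counts of each animal summed over its days, so that a steer counts once, the difference was 0.49 ± 0.13 (unadjusted p 0.00123, FDR 0.597). In that test 0 of 9 members and 0% of all genes were called, and DESeq2 called 0 members. An unadjusted p under 0.05 was seen for 1 member, beside 1296 of 20640 genes. The animal means of LAG3 had a lowest, median and highest value of 24.7, 34.4 and 50.8 CPM in BRD steers (mean 35.7 ± 7.19 SD, n = 14) and of 15.9, 25.03 and 42.1 CPM in healthy steers (mean 25.8 ± 8.22 SD, n = 12). With the first pen in place of the supplement, the pens holding both labels carry the comparison. These were 2 and 8 of AAC and 3 and 4 of INR, without COMBO and pen 7. The difference was then 0.79 and passed (FDR 0.0795), with 416 genes called in all, against 0 in the main test. Over 10 alternatives other than leaving out an animal it lay between 0.40 and 0.79, and its FDR was 0.863 with the CD3 level as a covariate. With each animal left out it lay between 0.43 and 0.57 (FDR 0.302 to 0.908).

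The LAG3 difference was the widest in the AAC steers, a split made after the values were seen. The animal means were 36.8, 38.7, 47.9 and 50.8 CPM in the 4 BRD steers and 15.9, 17.7, 24.8 and 25.3 CPM in the 4 healthy steers of AAC, with no overlap. The log2 difference was 1.06 ± 0.23 (FDR 0.0438, 2.08-fold), and 1 of 9 members was called beside 5.06% of all genes. It was 0.14 ± 0.25 within COMBO, where 0 of 9 members and 0% of all genes were called (0 members with an unadjusted p under 0.05), and 0.26 ± 0.20 within INR, where 0 of 9 members and 0.00484% of all genes were called (again 0 members under 0.05). Of 20640 genes, 1617 were under 0.05 in COMBO and 1253 in INR.

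The test of whether the disease difference depended on the supplement gave an unadjusted p of 0.0200 and an FDR of 0.195 for LAG3. In that test 0 of 9 members and 1.3% of all genes were called, and 1 member was under 0.05 unadjusted, beside 3771 of 20640 genes. DESeq2 called LAG3 (FDR 0.0998), with 1931 genes called in all, against 269 by edgeR. The AAC call was lost without BRD animal 9 (1.13, FDR 0.112), BRD animal 21 (0.98, FDR 0.168), healthy animal 48 (0.98, FDR 0.147) or healthy animal 49 (1.16, FDR 0.199).

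Markers of several cell types differed along with LAG3 in AAC. The summed level of the T cell markers per animal ran from 1552 to 1968 CPM in BRD and from 1032 to 1460 CPM in healthy AAC steers, without overlap, and 3 of the 10 were called higher in BRD. The 5 B cell markers were all called lower, with sums of 893 to 1539 CPM against 1917 to 2943 CPM. With the CD3 level as a covariate the LAG3 difference in AAC was 0.76 and was not called (FDR 0.743). The 6 NK and cytotoxic markers summed to 272 to 386 CPM in BRD and 206 to 278 CPM in healthy AAC steers, and the 6 erythroid markers to 5260 to 25917 CPM and 1151 to 14823 CPM, with overlap in both and 0 called. The part of these cell types in the LAG3 difference was not tested further.

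**Figure D4:**
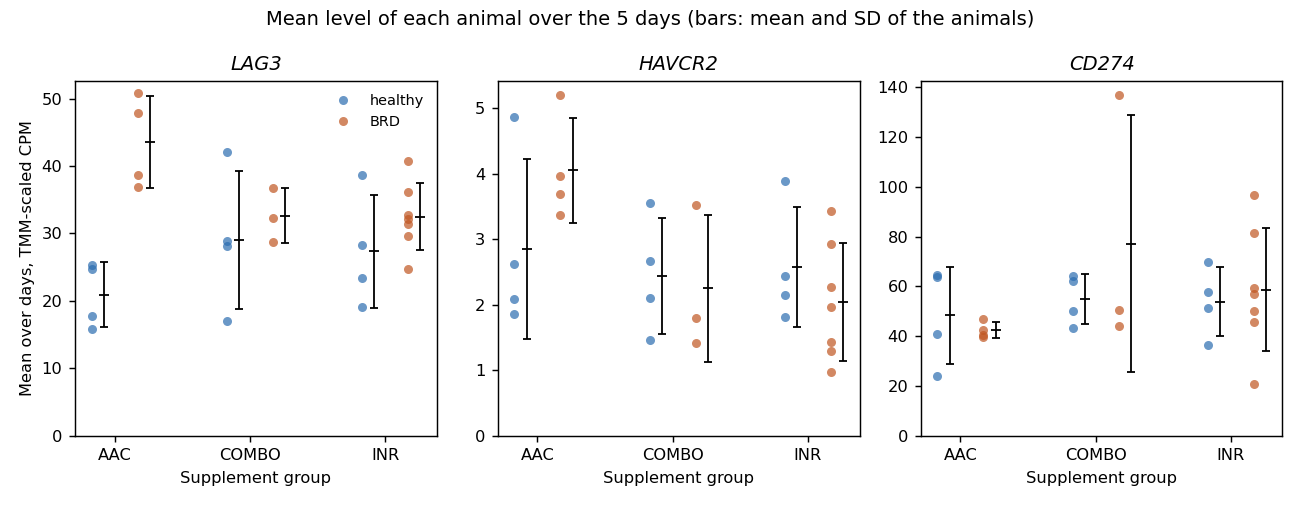
Mean CPM over days of LAG3, HAVCR2 and CD274 for each steer, by supplement and disease label (4, 4 and 4 healthy and 4, 3 and 7 BRD steers for AAC, COMBO and INR), with black bars for the mean and SD of each group. The 4 BRD AAC steers lie at 36.8 to 50.8 CPM of LAG3, above the 4 healthy AAC steers at 15.9 to 25.3, while the labels overlap in COMBO and INR, and the highest CD274 mean is that of BRD COMBO animal 18 at 137 CPM.

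No other member was called between the labels. FOXP3 differed by 0.36 ± 0.18 on day 28 (unadjusted p 0.0446, FDR 0.571), with medians of 8.49 CPM in BRD (4.44 to 16.1) and 6.09 CPM in healthy steers (4.48 to 10.5), and by 0.04 ± 0.18 on day 0. ICOS differed by between 0.06 and 0.24 over the 5 days and IL2RA by between 0.16 and 0.23, each with a lower bound of the 95% interval under 0. CTLA4 differed by between -0.07 and 0.17, TIGIT by between 0.00 and 0.17 and PDCD1 by between -0.09 and 0.11. HAVCR2 differed by between -0.36 and 0.38, with standard errors of 0.54 to 0.56.

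CD274 differed by 0.71 ± 0.35 on day 0 (unadjusted p 0.0436, FDR 0.690). The BRD median was 43.3 CPM (14.26 to 244.6) and the healthy median 46.38 CPM (14.5 to 82.2), so the medians stood in the other order. The fitted difference gives the 3 supplements equal weight. The day 0 medians of BRD and healthy steers were 91.58 and 59.88 CPM in COMBO and 42.80 and 24.91 CPM in INR. In AAC they stood in the other order, at 40.85 and 45.76 CPM. The 244.6 CPM came from BRD COMBO animal 18, 1 of 3 steers of its group. The part of this steer or of any supplement in the fitted difference was not tested. The difference was between -0.10 and 0.23 at the later days.

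The third question was whether the supplements differed. Supplements were given to whole pens, with AAC in first pens 2 and 8, COMBO in 5 and 6 and INR in 3, 4 and 7. Supplement and pen thus cannot be told apart in any comparison of supplements, and the tests take steers as replicates. The paper does not take day 0 differences to represent supplementation, and COMBO steers had been drenched before shipment by then. An F-test over AAC, COMBO and INR at each day called 0 of 9 members in healthy steers, beside 0.0876% of all genes on day 0, 0.525% on day 13, 0% on day 28, 0.0164% on day 45 and 0.00547% on day 60. Members with an unadjusted p under 0.05 numbered 1, 0, 2, 0 and 0, namely IL2RA on day 0 (p 0.0111, FDR 0.401) and PDCD1 (p 0.0354) and CD274 (p 0.0223) on day 28. Of 18269 genes, 1626, 2170, 1442, 1218 and 1061 were under 0.05 at the 5 days. In BRD steers the F-test also called 0 of 9 members at each day, beside 8.62% of all genes on day 0, 2.77% on day 13, 0.471% on day 28, 0.103% on day 45 and 0.314% on day 60. The members under 0.05 unadjusted were LAG3 on day 28 (p 0.0398) and on day 45 (p 0.0214), and 0 on the other days. Of 18477 genes, 3642, 2675, 1982, 1449 and 2262 were under 0.05 at the 5 days. DESeq2 and limma-voom called 0 members in both labels.

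IL2RA on day 0 in healthy steers showed the earliest such spread. Its 4 COMBO steers ran from 53.7 to 139 CPM (median 72.2), against 27.8 to 90.9 in AAC (median 38.7) and 29.97 to 61.5 in INR (median 40.5). The 139 CPM was that of animal 6, and the other 3 COMBO steers had 53.7, 55.6 and 88.8 CPM. Pen 5 held all 4 of them, so drench and pen cannot be told apart among the healthy steers. The 3 BRD COMBO steers, of another label and in pen 6, ran from 35.4 to 80.05 CPM on day 0. The day 0 medians of BRD steers were 54.57 CPM in COMBO, 59.3 CPM in AAC and 64.4 CPM in INR. The part of the drench in these levels was not tested. On day 60 the medians of the healthy steers were 34.8 CPM in COMBO, 35.7 CPM in AAC and 29.5 CPM in INR.

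With counts summed by animal over all days, day 0 included, pairs of supplements gave 0 of 9 member calls in each comparison by edgeR. These sums thus hold day 0 blood, which the paper does not take to represent supplementation. In healthy steers 0% of all genes were called for AAC against INR, 0% for AAC against COMBO and 0% for COMBO against INR, with 0, 2 and 0 members under 0.05 unadjusted and 0 member calls by DESeq2. Of 20640 genes, 1487, 1493 and 982 were under 0.05. The pair of members was PDCD1 (-0.36 ± 0.17, p 0.0456) and LAG3 (-0.48 ± 0.23, p 0.0472), both lower in AAC than in COMBO. In BRD steers 4.46% of all genes were called for AAC against INR, 5.26% for AAC against COMBO and 0% for COMBO against INR, with 1, 1 and 0 members under 0.05 unadjusted. Of 20640 genes, 4147, 4194 and 897 were under 0.05, so members were under it no more often than all genes.

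The member under 0.05 for AAC against INR in BRD steers was HAVCR2, an inhibitory receptor also carried by monocytes and NK cells. Its animal means were 3.37, 3.69, 3.96 and 5.202 CPM in the 4 BRD AAC steers and ran from 0.974 to 3.42 CPM, with a median of 1.97, in the 7 BRD INR steers, so the groups overlapped by 1 animal of each. The log2 difference of 0.96 ± 0.33 was not called (FDR 0.121). It was called by DESeq2 (FDR 0.0566) and when genes needed 1 CPM in 20% of the animals (FDR 0.0976), which changed the set of genes adjusted over. Those fits called 2086 and 1159 genes in all, against 921 in the main fit. For AAC against COMBO the member was CD274, at -0.86 ± 0.41 (unadjusted p 0.0485, FDR 0.242), with means of 39.8 to 46.9 CPM in AAC and of 44.03, 50.7 and 137 CPM in COMBO. The 137 CPM was that of animal 18, which had 244.6 CPM on day 0.

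Across libraries most members formed a loose group. The highest Pearson's r between members, on log2 CPM over all libraries, were 0.71 for FOXP3 and ICOS, 0.67 for ICOS and TIGIT, 0.61 for CTLA4 and ICOS and 0.61 for TIGIT and PDCD1. Within animals, after each animal's mean was taken off, the pairs FOXP3 and ICOS, ICOS and TIGIT, and TIGIT and PDCD1 each had r = 0.63, and PDCD1 and LAG3 had r = 0.67, against 0.36 before. FOXP3 and IL2RA, both carried by regulatory T cells, had an r of 0.28. CD274 went the other way, with r of -0.34 with FOXP3, -0.30 with PDCD1 and -0.25 with ICOS. The libraries share animals, days and totals, so these values are descriptions.

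**Figure D5:**
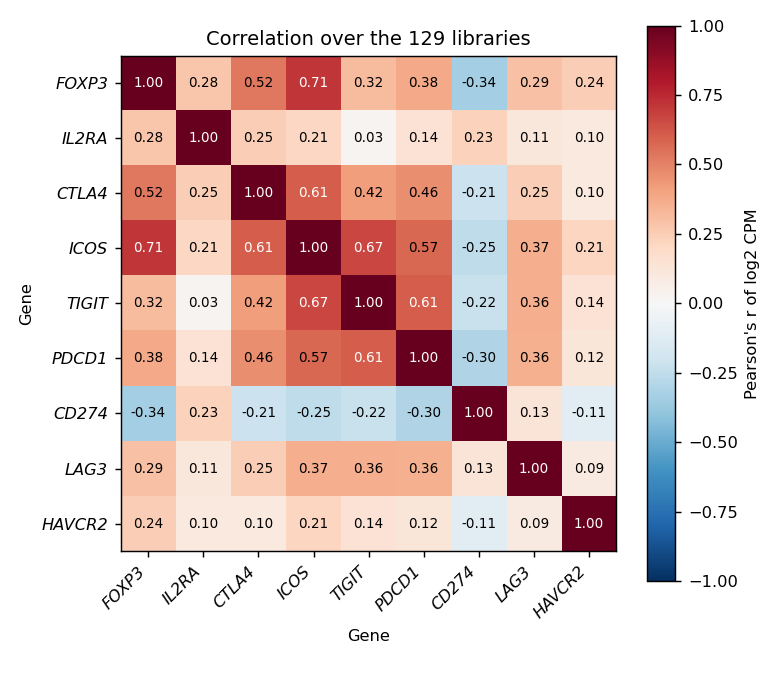
Pearson's r of log2 CPM between the 9 genes over the 59 healthy and 70 BRD libraries, shown as a colour grid with the value in each cell. FOXP3, CTLA4, ICOS, TIGIT and PDCD1 are positively related (0.32 to 0.71), IL2RA and HAVCR2 stand apart with r of at most 0.28, and CD274 is below 0 with FOXP3, PDCD1 and ICOS.

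The same split appeared against the cell markers. The r with the mean log2 CPM of the T cell markers was 0.70 for ICOS, 0.64 for PDCD1, 0.63 for FOXP3 and 0.59 for TIGIT. It was 0.52 for LAG3 and 0.42 for CTLA4, then 0.27 for HAVCR2, 0.14 for IL2RA and -0.41 for CD274. IL2RA, carried by regulatory and activated T cells, thus did not follow the T cell markers in whole blood, whereas FOXP3 did. TIGIT had an r of 0.47 with the proliferation markers and PDCD1 of 0.46 with the NK and cytotoxic markers.

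The genes most like each member over all libraries were as follows, by the same r. For FOXP3 they were CD28 (0.79), the T cell costimulatory receptor, CDC25B (0.78) and LPAR5 (0.75), and for ICOS they were CD28 (0.86), LOC112448411 (0.79) and SAMHD1 (0.78). For CTLA4 they were CD28 (0.66), the member ICOS (0.61) and SLC37A3 (0.59). CD28 was thus the nearest gene to FOXP3, ICOS and CTLA4 alike. TIGIT was nearest to PCYT1B (0.70), UBR7 (0.68) and PRKCQ (0.67), a kinase of T cell receptor signalling. PDCD1 was nearest to CD2 (0.70), LOC783945 (0.69) and LOC112448411 (0.68), and LAG3 to LOC101908015 (0.67), LOC515828 (0.66) and GATA3 (0.65), a T cell transcription factor.

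The nearest genes to IL2RA were SLC28A3, SEMA4D and LOC112449349, each with r = 0.72. Genes near CD274 included LOC512486 (0.88) and STAT2 (0.86), a transcription factor of the interferon response. HAVCR2 had no close neighbour, with DYRK2, ZNF609 and TIAM1 each at 0.47. Every pair was taken over the same libraries.

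Related genes from fixed lists were read in the same comparisons. None of the listed genes was called by edgeR between BRD and healthy steers at any day, and the movement lay in the change from day 0. These lists were chosen with earlier results of the data known and are described by counts alone.

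Of 13 genes associated with regulatory T cells, all tested, 4, 2, 3 and 3 fell in healthy steers on days 13, 28, 45 and 60 and 0 rose. In BRD steers 1, 1, 2 and 1 fell, and 1 rose on each of days 13 and 28. CCR4, a homing receptor of memory and regulatory T cells, fell at every later day in healthy steers (-0.60 ± 0.11 on day 28, FDR 3.09e-05) and from day 28 on in BRD steers (-0.41 ± 0.10 on day 28, FDR 0.00174). CCR8, another such receptor, fell in healthy steers on days 13, 28 and 45 (-0.50 ± 0.12 on day 45, FDR 0.003) and in BRD steers on day 45 (-0.28 ± 0.11, FDR 0.0652).

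LRRC32, which holds latent TGF-beta on the cell surface and is also carried by platelets, fell on day 13 in both labels (-0.51 ± 0.13 in healthy and -0.47 ± 0.12 in BRD steers) and on days 45 and 60 in healthy steers. On that day 2 of 5 platelet markers rose in healthy and 4 of 5 in BRD steers. NT5E, an ectoenzyme that makes adenosine, rose in BRD steers on day 13 by 0.58 ± 0.17 (FDR 0.0154), and IKZF4 by 0.18 ± 0.06 on day 28. The median change of this list was between -0.16 and 0.00 over the 8 comparisons, beside -0.01 to 0.01 for all genes. FOXP3 rose on day 13 in BRD steers, then, while CCR4 and CCR8 did not rise in any of the 8 comparisons.

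Of 17 ligands and partners of the checkpoint receptors 16 were in the table and tested. In healthy steers 1, 5, 1 and 1 fell and 0, 0, 1 and 1 rose over the 4 later days. In BRD steers 3, 6, 2 and 5 fell and 2, 2, 2 and 1 rose. ICOSLG, the ligand of ICOS, fell on day 28 by 0.40 on the log2 scale in healthy and by 0.38 in BRD steers, where BTLA, an inhibitory receptor, fell by 0.53 and 0.46. ICOSLG was also called lower on day 60 and BTLA on day 45 in both labels, and BTLA on day 60 in BRD steers. LGALS9, a ligand of HAVCR2, fell in BRD steers by 0.56 on day 13, 0.55 on day 28, 0.49 on day 45 and 0.79 on day 60 (-0.79 ± 0.17, FDR 0.00034). PVR, the ligand of TIGIT, rose on day 45 in both labels (0.39 ± 0.10 and 0.45 ± 0.09) and on day 60 (0.42 ± 0.10 and 0.37 ± 0.09), and on day 28 in BRD steers (0.29 ± 0.09). NECTIN2, another TIGIT ligand, fell in BRD steers on days 13, 28 and 60 (-0.53 ± 0.13 on day 60, FDR 0.00325), while TIGIT itself was not called at any day. The median of the list was lowest on day 28, at -0.23 in healthy and -0.24 in BRD steers.

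Of 8 genes of interleukin-2 receptor signalling, at most 1 rose and 1 fell in any of the 8 comparisons, and 0 were called in 4 of them. IL2 itself fell in BRD steers on day 28 (-1.06 ± 0.36, FDR 0.0317), where IL2RA fell too. IL2RG rose by 0.18 ± 0.07 in BRD steers on day 45, and in healthy steers STAT5A rose by 0.15 ± 0.05 on day 45, JAK3 rose by 0.10 ± 0.04 on day 28 and JAK1 fell by 0.16 on day 28. IL2RG and IL2RB, the chains that pair with IL2RA, were not called lower in any of the 8 comparisons, though the standard errors of IL2RB were 0.55 to 0.62.

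Of 6 interferon-gamma signalling genes, at most 1 was called in any comparison. None was called on day 60 in healthy steers. IFNGR1 fell in BRD steers on days 13, 28 and 60 (-0.32 ± 0.09 on day 28, FDR 0.00468) and in healthy steers on day 28 (-0.24 ± 0.09, FDR 0.0647), and IRF1 rose on day 45 in both labels (0.42 ± 0.14 in healthy and 0.41 ± 0.13 in BRD steers). Of 6 exhaustion and effector factors, 0, 1, 1 and 0 were called over the 4 later days in healthy steers and 0, 1, 1 and 2 in BRD steers. PRDM1, known from effector and exhausted T cells, fell on day 28 in both labels (-0.37 ± 0.12 and -0.33 ± 0.11) and on day 60 in BRD steers, and TBX21, the T-bet gene, rose in BRD steers on day 45 (0.29 ± 0.12) and day 60 (0.33 ± 0.12, FDR 0.0631). BATF rose in healthy steers on day 45 by 0.43 ± 0.15.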

How the data were processed

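Whole blood collected in Tempus tubes was sequenced as stranded mRNA libraries. The authors used Trimmomatic 0.39 for trimming, HISAT2 for alignment against the ARS-UCD1.3 assembly and StringTie 2.2.0 for assembly, and derived counts per gene with prepDE, which computes them from coverage. The deposited values are these counts, without normalization, for 32395 genes, and rows were matched to genes by symbol.

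Counts were analysed in R 4.3.3 with edgeR 4.0.16: filterByExpr, TMM scaling, a common dispersion, quasi-likelihood F-tests and Benjamini-Hochberg adjustment over all genes of each comparison, at an FDR below 0.10. Change from day 0 was fitted with animal as a block, since the labels give each animal's ID (18937 genes; biological coefficient of variation 28.4%). BRD and healthy steers were compared by day over 30 means of disease label, supplement and day (39.0%), and over the counts of each animal summed across days (20640 genes; 34.3%). The fits by day treat the libraries of an animal on other days as independent. Supplements were tested in the healthy (18269 genes) and BRD (18477 genes) libraries apart. Correlations used log2 CPM with a prior count of 2. DESeq2 1.42.0, limma 3.58.1 with voom, RLE factors, trended dispersion, other filters, covariates, first pen and the leaving out of each animal were alternatives. The S100A covariate, the splits by supplement and the test of disease label by supplement were added after seeing the data. The main tests were also run on counts simulated from the fitted means and common dispersion, with set changes larger than those of the members. These counts were drawn independently for each library, so that run cannot show how the tests behave with correlation within animals or with pens. Plots were made in matplotlib 3.10.9 under Python 3.11.15.

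The members and gene lists were chosen with earlier results of these data known. Named genes are the 9 members, up to 3 called genes of smallest p per list and comparison, and the 3 genes of highest r with each member, of which 1 is not reported here. Genes of the lists named beyond this rule (CCR4, CCR8, LRRC32, NT5E, IKZF4, IL2RB and the cell markers) were partly chosen after their values were seen. No sequences are shown, and lengths of genes were not used here.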

Additional observations from a re-analysis of the deposited data

Results flagged for a closer look

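Animal means over the 5 days were searched for a steer standing far from its group of 4 to 10 animals, by the gap to the nearest other steer over the whole range of the group (Dixon's test at 95%). In 45 groups of gene, disease label and supplement, 4 steers met this, and chance gives about 1 in 20 groups. CTLA4 in BRD AAC animal 21 was 3.49 CPM, against 5.23 to 5.35 CPM in the other 3. IL2RA in healthy COMBO animal 6 was 59.4 CPM, against 46.8 to 48.7 CPM. TIGIT in BRD INR animal 43 was 17.37 CPM, against 23.2 to 26.5 CPM in the other 6, and TIGIT in healthy AAC animal 49 was 20.9 CPM, against 24.7 to 25.46 CPM.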

How the results depend on the processing

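The tallies cover the called changes of IL2RA, FOXP3 and ICOS from day 0, the LAG3 differences between the labels and HAVCR2 in BRD AAC against INR, and no other member. Of 202 values under alternatives other than leaving out an animal, 186 kept their direction and their side of the threshold, 10 lost the threshold, 4 passed it and 2 reversed. Of 368 values with an animal left out, 359 kept both, 7 lost the threshold, 1 passed it and 1 reversed. Many of the values in both tallies belong to LAG3 and HAVCR2 differences that were not called, where keeping means staying uncalled. For LAG3 within AAC all 26 steers were left out in turn, though only 4 BRD and 4 healthy steers enter that difference. Leaving out any of 4 of these AAC steers lost the call, so the tallies do not measure how stable the calls were. The cause was not tested where a call changed. In the comparison of BRD with healthy steers by day the member calls rose from 0 to 1 with DESeq2, and lay between 0 and 1 with an animal left out. The DESeq2 call was on day 0, where 98 genes were called in all, against 3 by edgeR. Over animal sums the member calls rose to 1 with first pen in place of supplement, where 416 genes were called in all, against 0 in the main fit. Calls of change from day 0 went from 3 to 1 in healthy steers and from 6 to 3 in BRD steers with the S100A8, S100A9 and S100A12 level as covariate. Calls over all genes fell as well, to 1457 from 3796 on day 28 in BRD steers. Without the replicate block, that is without pairing the days of an animal, the member calls of change were 3 in healthy and 3 in BRD steers, and 0 for the difference between them. Supplement pairs in BRD steers went from 0 to 1 with DESeq2 and with 1 CPM required in 20% of animals. For AAC against INR those fits called 2086 and 1159 genes in all, against 921 in the main fit. IL2RA reversed to 0.22 on day 13 and to 0.0174 on day 28 in BRD steers with the S100A covariate, and LAG3 within COMBO to -0.0435 without healthy COMBO animal 6 (-0.0435 to 0.383 with each animal left out). Outside these tallies, ICOS was called in healthy steers on day 13 with the CD3 covariate (0.22, FDR 0.0487), with 1823 genes called in all, against 2074 in the main fit. FOXP3 was called in BRD steers on day 28 with the S100A covariate (0.40, FDR 0.0374) and without BRD INR animal 43 (0.26, FDR 0.0844). Those fits called 1457 and 2997 genes in all, against 3796. CTLA4 was called on day 13 in BRD steers without BRD INR animal 39 (0.32, FDR 0.0814), with 3120 genes called in all, against 3300. DESeq2 called LAG3 in the test of disease label by supplement (FDR 0.0998), with 1931 genes called in all, against 269. Leaving out the day 60 library of BRD animal 40, of lower RNA integrity, changed no member call. limma-voom was not run on animal sums.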

Other observations

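BRD INR animal 43 held the lowest library of FOXP3 (2.62 CPM, day 60), IL2RA (16.3 CPM, day 60), TIGIT (13.2 CPM, day 60) and PDCD1 (4.38 CPM, day 45). On day 0 the same steer had 125.9 CPM of IL2RA, the second highest of all libraries. Its summed T cell markers averaged 957 CPM over the 5 days, the second lowest of the 26 steers.

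BRD COMBO animal 18 held the highest library of LAG3 (64.8 CPM, day 0), CD274 (244.6 CPM, day 0) and HAVCR2 (9.11 CPM, day 60), and its CD274 level on day 45 was 187 CPM. Its mean FOXP3 level, 4.79 CPM, was the lowest of the 14 BRD steers.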
